A study of Mus musculus with 6 samples.

Results

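The Hox genes of the clusters HoxA, HoxB, HoxC and HoxD were followed in RNA sequencing of mouse embryonic fibroblasts (MEFs), the fibroblasts grown out of a dissociated embryo. The members were every row of the deposited table whose symbol is Hoxa, Hoxb, Hoxc or Hoxd and a number, which gave 32 genes of 26231. GENCODE vM21 lists 39 such genes for mouse. Hoxa13, Hoxb1, Hoxc11, Hoxc12, Hoxd10, Hoxd12 and Hoxd13 were not analysed here. The members were 10 genes of HoxA (chromosome 6), 9 of HoxB (chromosome 11), 7 of HoxC (chromosome 15) and 6 of HoxD (chromosome 2).

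Hox genes encode homeodomain transcription factors that give cells along the head-to-tail axis their positional identity. Genes with the same number in different clusters are paralogues. Low-numbered genes lie at one end of each cluster and are expressed up to more anterior levels, whereas high-numbered genes are limited to posterior levels and to distal limbs and external genitalia. Fibroblasts keep much of the Hox pattern of their place of origin in culture, kept open or shut by Trithorax and Polycomb proteins, so the set of Hox genes that is on serves as a label of where cells came from.

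Both lines were of the FVB strain with Nf2 alleles flanked by loxP sites, taken from embryos at approximately 14 days by the labels and day 13 by the study's methods, and immortalized with SV40 large T antigen. The control line (labelled MEF WT, called MEF Nf2fl/fl by the study) received a GFP control lentivirus, and the other line (labelled Nf2 KO, called MEF Nf2-/-) received a Cre lentivirus driven by the CMV promoter. Each is a single line represented by 3 libraries, made from cells kept without serum for 24 h, and both lines carry the same 3 replicate marks (here replicates 1, 2 and 3). Nothing in the labels says that libraries of a line came from separate cultures, so the tests measure only the spread between these libraries, and the line difference cannot be told apart from a difference between the cells that each transduction and selection retained.

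Nf2, the targeted gene (chr11:4765845-4849536, minus strand), was listed at 14.3, 13.7 and 13.1 RPKM (read numbers divided by exon length and by depth) in control replicates 1 to 3. In the libraries labelled Nf2 KO it was at 15.4, 12.9 and 13.9 RPKM. These ranges overlapped (difference in log2(RPKM + 1) 0.03, SE 0.10, limma adjusted p = 0.987; exact two-sided permutation p = 0.8 on the RPKM, the smallest possible being 0.1). Total Nf2 RNA therefore did not separate the lines, and reads over the deleted part alone were not analysed here. The recovered depth was 13460316, 18961383 and 61229659 reads in the control and 18085310, 19284702 and 73085164 reads in the libraries labelled Nf2 KO. The fibroblast label was checked with 11 markers, of which 10 passed the filter used for tests, and their summed level was 2467 to 3272 RPKM in the control and 1700 to 2241 RPKM in the libraries labelled Nf2 KO. Col1a1, a chain of type I collagen, was at 265 to 712 RPKM over all 6 libraries. Of the 10, limma called 4 lower in the libraries labelled Nf2 KO (Pdgfra, Fn1, Dcn and S100a4; 1.06% of all genes were called), while a fit blocked on the replicate number called 6, adding Col3a1 and Thy1 (blocked adjusted p = 0.0274 and 0.00716; 7.53% of all genes). Dcn passed the filter through the control libraries alone, where it was high. Markers of other cell types were low in both lines, given as summed levels in the control and in the libraries labelled Nf2 KO. The 7 epithelial markers summed to 0.391 to 0.791 against 0.367 to 1.02 RPKM, the 5 endothelial markers to 1.46 to 3.89 against 1.52 to 4.45, nearly all of it Kdr, and the 6 macrophage and blood markers to 6.98 to 8.55 against 5.90 to 7.46, nearly all of it Cd68. The 3 skeletal muscle markers with a row summed to 0.248 to 0.545 against 0.491 to 0.505 RPKM. The 7 neural markers summed to 3.62 to 6.39 against 8.76 to 12.2 RPKM, mostly Map2, which was called higher (adjusted p = 0.0399), while the neural factor Sox2 was listed at 0 in 5 libraries and at 0.0252 RPKM in the other. The epithelial Cdh1 did not pass 0.0419 RPKM and the endothelial Pecam1 did not pass 0.0286 RPKM in any library.

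In both lines the Hox RNA came mainly from paralogue groups 2 to 7 of HoxA, 2 to 9 of HoxB and 4 to 9 of HoxC, with little from HoxD and almost none from groups 10 to 13 apart from Hoxc10. The summed level of the members was 151 to 240 RPKM in the control and 126 to 258 RPKM in the libraries labelled Nf2 KO. Between 17 and 21 of the 32 members reached 1 RPKM in a library, and between 2 and 5 were listed at 0. Hoxb9 had the highest level of all members in each of the 6 libraries, and the highest member of each cluster was also the same throughout, namely Hoxa5, Hoxb9, Hoxc6 and Hoxd8. In bulk RNA, fewer cells that express a gene and less RNA per cell cannot be told apart.

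**Figure D1:**
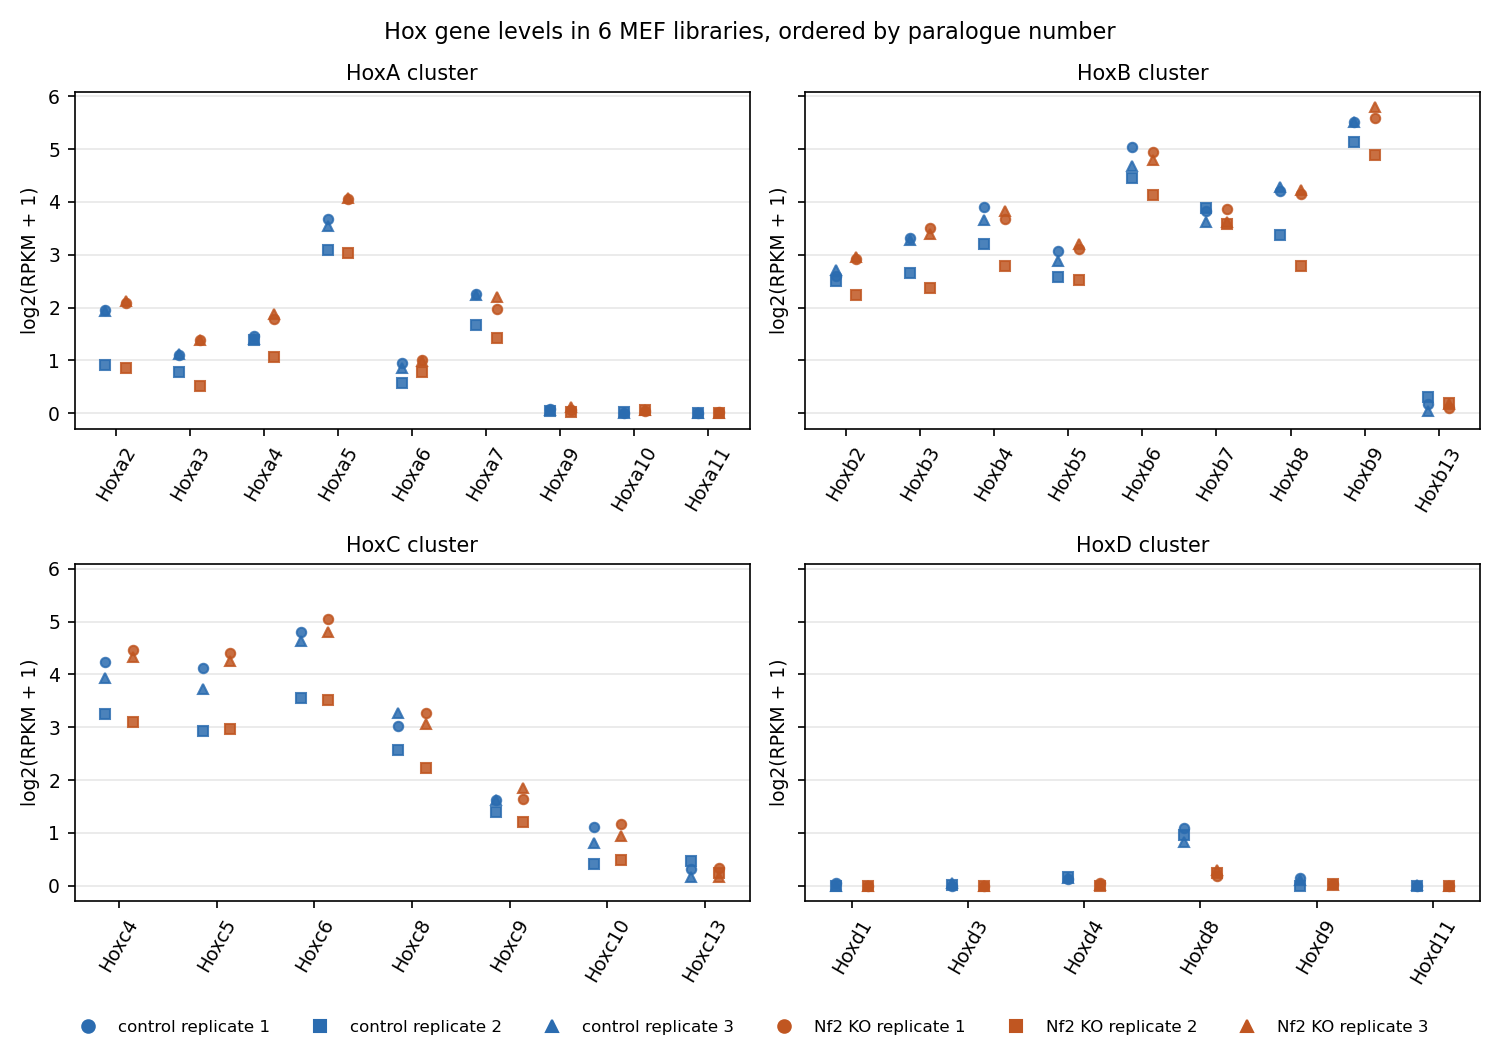
Levels of 31 Hox members, as log2(RPKM + 1), in 4 panels for the clusters with genes in order of number; each point is a library (blue control, orange Nf2 KO label; circle, square and triangle for replicates 1, 2 and 3). The outline of each cluster is alike in both colours, squares lie low for most genes, and Hoxd8 is the HoxD gene that rises above the base line.

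HoxB held the larger part of the Hox RNA. Hoxb9 (chr11:96271457-96276595, plus strand), a gene of the thoracic level whose RPKM was above that of 96.1% of all rows of the table, was at 44.4, 34.0 and 44.9 RPKM in the control and 46.9, 28.7 and 54.4 RPKM in the libraries labelled Nf2 KO. Hoxb6 followed at 32.1, 20.8 and 24.8 RPKM against 30.0, 16.6 and 26.7 RPKM. The ranges of the lines overlapped for both genes, and replicate 2 was the lowest of each line. Hoxb8 spread from 5.88 to 18.5 RPKM over all libraries. Hoxb7 had at most 13.9 RPKM, and Hoxb4 ran from 5.88 to 14.0 RPKM. Hoxb3, Hoxb5 and Hoxb2 lay between 3.74 and 10.4 RPKM. Hoxb13, the tail-end gene that stands apart from the rest of its cluster, stayed between 0.0370 and 0.239 RPKM.

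In HoxC the mean level peaked at Hoxc6, with Hoxc4 and Hoxc5 below it, and fell from there toward the posterior end. Hoxc6 (chr15:102998257-103011881, plus strand), a gene of the trunk, was at 27.1, 10.8 and 23.7 RPKM in the control and 32.0, 10.4 and 26.9 RPKM in the libraries labelled Nf2 KO. Replicate 2 of both lines lay below the other libraries by more than the lines differed. Hoxc4 spread from 7.53 to 20.9 RPKM, Hoxc5 from 6.62 to 20.2 RPKM and Hoxc8 from 3.72 to 8.65 RPKM. Hoxc9 was at 1.30 to 2.60 RPKM, Hoxc10 at 0.331 to 1.25 RPKM and Hoxc13, a gene of hair and nails in the adult, at 0.119 to 0.386 RPKM.

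HoxA was led by Hoxa5 (chr6:52201754-52204587, minus strand), a gene with roles in the neck, shoulder and lung. It was at 11.7, 7.56 and 10.7 RPKM in the control and 15.7, 7.24 and 15.9 RPKM in the libraries labelled Nf2 KO. Replicates 1 and 3 labelled Nf2 KO were the highest, and replicate 2 of that line was the lowest of all 6. Hoxa2, Hoxa3, Hoxa4 and Hoxa7 lay between 0.425 and 3.80 RPKM and Hoxa6 between 0.483 and 1.01 RPKM. The posterior genes were near the floor: Hoxa9 did not pass 0.0809 RPKM, and Hoxa11 was represented by 1 read in 1 library. Hoxa10, which acts in the lumbar region and the uterus, was at 0, 0.0161 and 0.00499 RPKM in the control and at 0.0338, 0.0476 and 0.0502 RPKM in the libraries labelled Nf2 KO, from 0, 1 and 1 reads against 2, 3 and 12 reads.

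The body-axis profile was then compared as shares of the summed Hox RPKM of a library, with no test. HoxB held 59.6% to 67.2% in the control and 55.7% to 64.0% in the libraries labelled Nf2 KO, and HoxC 22.0% to 30.0% and 24.0% to 33.1%. HoxA held 9.78% to 10.2% and 11.2% to 11.9%, ranges that did not overlap. HoxD held 0.464% to 0.714% and 0.0792% to 0.169%, which did not overlap either. By number, groups 1 to 3 held 8.01% to 8.96% against 8.97% to 9.56%, groups 4 to 8 held 67.0% to 71.9% against 66.1% to 71.2%, and groups 9 to 13 held 20.1% to 24.3% against 19.7% to 24.4%. The first of these ranges only just missed each other, and the others overlapped. Across the 32 members, Spearman's rho between libraries was 0.967 to 0.995 within a line, 0.978 to 0.988 between same-numbered libraries of the lines, and 0.963 to 0.986 between libraries that shared neither. The members share a library, and low genes are ordered by few reads. The median absolute difference in log2(RPKM + 1) was 0.0862 to 0.180 between same-numbered libraries of the lines, against 0.0721 to 0.655 between libraries of a single line. Between libraries that shared neither line nor number it was 0.117 to 0.568.

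**Figure D2:**
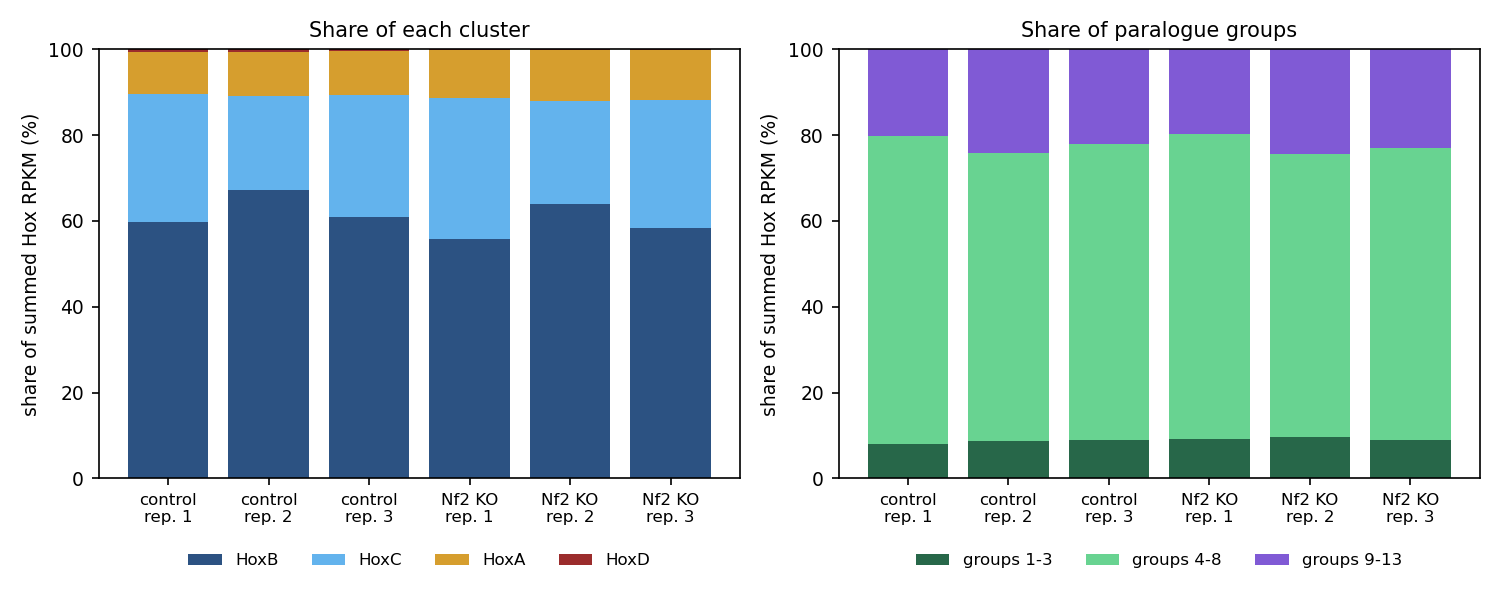
Share of the summed Hox RPKM of each library (percent, stacked bars, 1 bar per library) by cluster on the left and by paralogue group on the right. HoxB takes 55.7% to 67.2% and groups 4 to 8 take 66.1% to 71.9% in every library, while HoxD is a thin band of at most 0.714% that is thinner under the Nf2 KO label.

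To ask whether single members differed between the lines, every gene of the table that reached 1 RPKM in 3 or more libraries entered a single fit (limma on log2(RPKM + 1), two-sided, threshold of 0.05 on the Benjamini-Hochberg adjusted p). Of the 32 members, 19 passed this filter, 6 of HoxA, 8 of HoxB, 5 of HoxC and 0 of HoxD. None of the 19 was called in limma, 0 had an unadjusted p under 0.05 (9.91% of all genes), and voom on the recovered reads called 0 of them (1.37% of all genes), whereas limma called 1.06% of all 11067 genes (53 higher and 64 lower in the libraries labelled Nf2 KO). The values of 13 members were higher and of 6 lower, with a median difference of 0.10 on the log2 scale (all genes -0.01). The ranges of the lines overlapped for every one of the 19 members, while 15.1% of all tested genes did not overlap. Without replicate 1 or without replicate 3 in both lines, the fit called 0 of all genes (578 and 556 had an unadjusted p under 0.05), whereas leaving out replicate 2 raised the count to 484.

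Among the members shown, the differences ran from -0.23 for Hoxb8 (SE 0.44, limma adjusted p = 0.979) to 0.29 for Hoxa5 (SE 0.31, adjusted p = 0.926). For Hoxb9 the difference was 0.04 with a 95% interval of -0.55 to 0.62, and for Hoxc6 it was 0.12 with an interval of -1.03 to 1.28. The fit thus did not exclude changes within these intervals, in either direction. With the replicate number as a block the intervals narrowed to -0.23 to 0.30 for Hoxb9 and -0.07 to 0.32 for Hoxc6. In that fit again 0 of 19 members were called, against 7.53% of all genes, and 2 had an unadjusted p under 0.05, against 23.2%. Hoxc5 was at 16.4, 6.62 and 12.2 RPKM in the control and 20.2, 6.80 and 18.0 RPKM in the libraries labelled Nf2 KO, higher in 3 of 3 pairs, with a difference of 0.28 and a blocked adjusted p of 0.184. Hoxa7 and Hoxb8 had lower values in the libraries labelled Nf2 KO in 3 of 3 pairs, at 0.773, 0.764 and 0.970 and at 0.962, 0.628 and 0.959 times the control, with blocked adjusted p of 0.235 and 0.320. The share of all genes that kept their sign in 3 of 3 pairs was not computed, so such agreement is only a description. Leaving out replicate 2 of both lines called 1 of 19 members, against 4.37% of all genes. This was Hoxa5, higher by 0.46 on the log2 scale (SE 0.10, limma adjusted p = 0.0499), although with all libraries its adjusted p was 0.926 and its value in pair 2 was slightly lower.

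**Figure D3:**
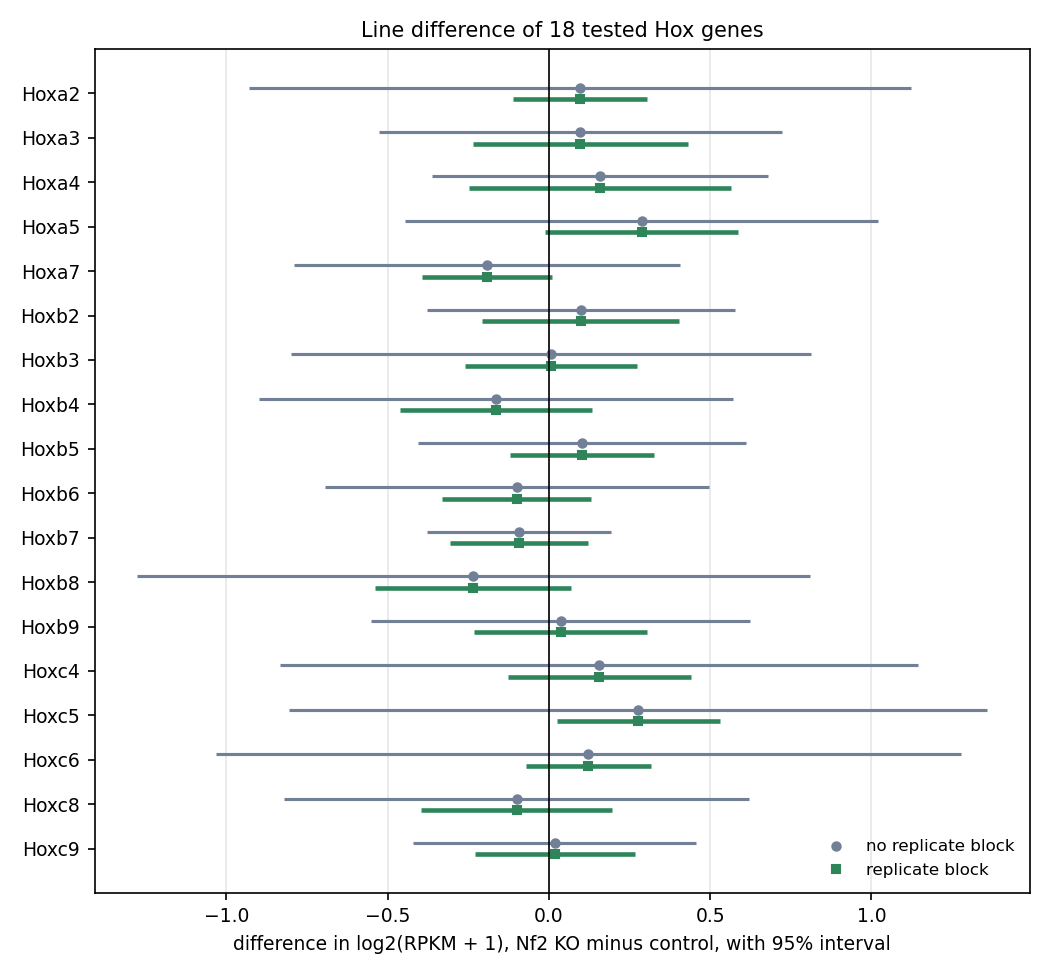
Difference between the lines in log2(RPKM + 1), Nf2 KO label minus control, for 18 tested members (rows), with 95% intervals; grey circles without and green squares with the replicate number as a block. Every grey interval spans 0, and of the green ones that of Hoxc5 lies above 0, though its adjusted p was 0.184.

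HoxD was the cluster whose levels stood apart between the lines, all of it below the filter above. Hoxd8 (chr2:74704615-74707933, plus strand), the trunk gene that is the HoxD member of paralogue group 8, was at 1.14, 0.942 and 0.780 RPKM in the control, from 42, 49 and 131 reads. In the libraries labelled Nf2 KO it was at 0.141, 0.189 and 0.224 RPKM, from 7, 10 and 45 reads. All 3 control libraries lay above all 3 others, and the mean of the control was 5.16 times that of the libraries labelled Nf2 KO (0.953 ± 0.179 against 0.185 ± 0.0418 RPKM, SD, n = 3 each).

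With the filter lowered to 0.1 RPKM in at least 3 libraries, Hoxd8 was 1 of 24 members to be called, against 0.933% of all 15426 genes then tested. Its difference was -0.72 in log2(RPKM + 1), a scale that compresses the change of so low a gene (SE 0.10, limma adjusted p = 0.0330). With the same filter and the replicate block its adjusted p was 0.0194, and again Hoxd8 was the only called member, where 5.11% of all genes were called. Voom on recovered reads, for genes with at least 10 reads in 3 libraries, gave a difference of -2.17 (SE 0.31, adjusted p = 0.0248) and called Hoxd8 as 1 of 23 members, against 1.67% of all genes. The last 2 fits were chosen after the values were seen. With no filter at all its limma adjusted p was 0.134, and 0 of 32 members were called. The direction was the same with any library or replicate number left out (-0.62 to -0.81 at the filter of 0.1 RPKM), but the limma adjusted p stayed under 0.05 only without replicate 2 of both lines (0.0363) or of the control (0.0450). It was 0.494 without replicate 1 and 0.425 without replicate 3 of both lines, and between 0.0709 and 0.156 with any of the other 5 libraries removed. The call of Hoxd8 thus depends on which libraries enter the fit. Its direction could not change in these fits, because all control libraries lay above all libraries labelled Nf2 KO. The fibroblast markers Pdgfra, Fn1, Dcn and S100a4 were lower in the same libraries, and their part in the level of Hoxd8 was not tested.

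**Figure D4:**
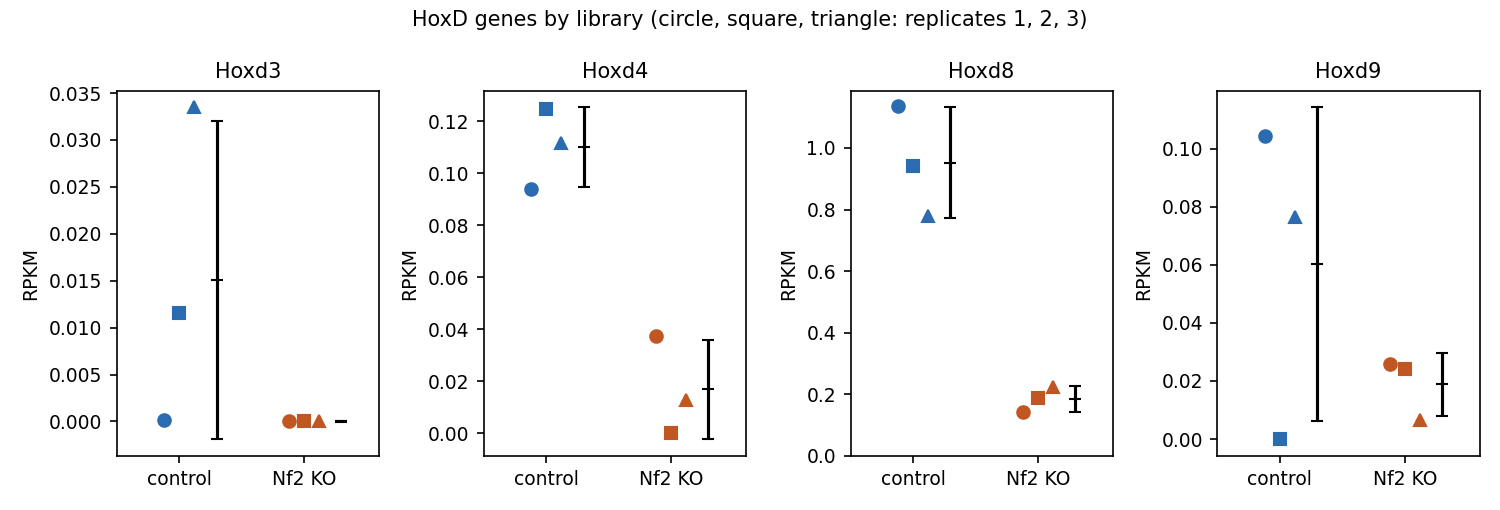
RPKM of Hoxd3, Hoxd4, Hoxd8 and Hoxd9 by library, each panel with its own linear axis; points are libraries and the black marks give mean and SD of the 3 libraries of a line. For Hoxd8 the control lies at 0.780 to 1.14 RPKM and the Nf2 KO label at 0.141 to 0.224 RPKM, while the other genes rest on at most 20 reads in any library.

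Reads of paralogues can be mistaken for each other, so the homeobox, the most alike stretch of the Hox genes, is shown for the members of group 8, the gene whose level differed and its paralogues. Each stretch is 180 bases of a single exon, read in the sense direction from GRCm38, and capitals mark the bases of Hoxb8 and Hoxc8 that differ from Hoxd8. The stretches lie at chr2:74706525-74706704 (Hoxd8), chr11:96284174-96284353 (Hoxb8) and chr15:102992571-102992750 (Hoxc8), all on the plus strand.
Hoxd8: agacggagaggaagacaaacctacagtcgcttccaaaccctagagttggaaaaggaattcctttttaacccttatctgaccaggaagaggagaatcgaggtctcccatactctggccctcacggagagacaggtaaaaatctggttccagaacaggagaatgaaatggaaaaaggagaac
Hoxb8: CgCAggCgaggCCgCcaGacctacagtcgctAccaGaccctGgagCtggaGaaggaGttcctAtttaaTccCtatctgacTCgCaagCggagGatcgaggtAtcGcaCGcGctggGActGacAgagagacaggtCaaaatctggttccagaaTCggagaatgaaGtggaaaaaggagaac
Hoxc8: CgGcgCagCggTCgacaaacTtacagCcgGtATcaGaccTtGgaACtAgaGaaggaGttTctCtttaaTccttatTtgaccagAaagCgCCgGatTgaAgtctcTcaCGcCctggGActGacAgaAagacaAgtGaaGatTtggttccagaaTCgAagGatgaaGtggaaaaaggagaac
Hoxb8 differed from Hoxd8 at 35 of the bases (80.6% identity) and Hoxc8 at 48 (73.3%), while the encoded homeodomains of 60 residues differed at 3 and 4 residues. The longest identical run was 17 bases with Hoxb8 and 15 with Hoxc8. Over the whole gene, 0.0730% of the 31-base stretches of Hoxd8 occurred in another gene (Hoxb8), and Hoxd8 shared 0 exon bases with any annotated gene. The levels of Hoxb8 (5.88 to 18.5 RPKM) and Hoxc8 (3.72 to 8.65 RPKM) overlapped between the lines.

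The other HoxD members had few reads, and their values are given with that limit. Hoxd4, a gene of the hindbrain and neck, was at 0.0940, 0.125 and 0.112 RPKM in the control and 0.0375, 0 and 0.0128 RPKM in the libraries labelled Nf2 KO, from about 4, 7 and 20 reads against 2, 0 and 3 reads. Hoxd3 was at 0.000167, 0.0115 and 0.0335 RPKM against 0, 0 and 0.0000560 RPKM, from 0.01, 0.92 and 8.6 recovered reads against 0, 0 and 0.02. Neither gene overlapped between the lines. For Hoxd3 this turns on 0.01 reads in control replicate 1 and 0.02 in replicate 3 labelled Nf2 KO, so it is not read as a difference. Further, 52.3% of the exon bases of Hoxd4 and 62.8% of those of Hoxd3 are shared with other annotated genes (Gm28230 above all). Reads of both genes therefore cannot be assigned with certainty. Hoxd9 was at 3, 0 and 10 reads against 1, 1 and 1 reads, and Hoxd1 and Hoxd11 had 1 read each over all libraries, in the control. Over every row of the table, with no filter, 4 of the 32 members did not overlap between the lines (Hoxa10 with higher and Hoxd3, Hoxd4 and Hoxd8 with lower values in the libraries labelled Nf2 KO), where 11.8% of all rows did not overlap. The summed level of HoxD was 1.01 to 1.38 RPKM against 0.204 to 0.244 RPKM, most of it Hoxd8. The antisense RNA Hoxd3os1, which shares exon bases with Hoxd3 and Hoxd4 and was picked after its values were seen, was at 0.0517, 0.0367 and 0.0429 RPKM in the control and at 0.0192, 0 and 0.00476 RPKM in the libraries labelled Nf2 KO. Genes beside the cluster, also picked after their values were seen, were not called: Lnpk differed by 0.11 (SE 0.16, limma adjusted p = 0.958), Mtx2 by -0.03 (SE 0.09, adjusted p = 0.993) and Atp5g3 by 0.06 (SE 0.08, adjusted p = 0.950).

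The 250 bases before the RefSeq starts of Hoxd8 and Hoxd4 (GRCm38.p6) are shown because these are the HoxD members with the most reads and both were lower in the libraries labelled Nf2 KO. They lie at chr2:74704365-74704614 and chr2:74721728-74721977, both on the plus strand. Capitals mark the letters CCAAT, the core of a common promoter element, and AGGTCA, the core bound by nuclear receptors such as the retinoic acid receptors, on either strand.
Hoxd8: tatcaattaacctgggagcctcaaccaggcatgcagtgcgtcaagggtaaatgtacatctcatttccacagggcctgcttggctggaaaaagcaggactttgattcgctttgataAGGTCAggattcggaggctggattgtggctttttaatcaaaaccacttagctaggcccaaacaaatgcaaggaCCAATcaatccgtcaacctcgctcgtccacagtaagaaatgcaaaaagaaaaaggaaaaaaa
Hoxd4: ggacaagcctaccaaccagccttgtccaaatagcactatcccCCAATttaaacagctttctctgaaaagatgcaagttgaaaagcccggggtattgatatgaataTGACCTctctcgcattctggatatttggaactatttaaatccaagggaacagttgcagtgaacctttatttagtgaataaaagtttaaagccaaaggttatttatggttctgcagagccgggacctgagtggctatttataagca
Both motifs were found in both windows. Other motifs were also searched and are not marked: TATAAA was found only in the window of Hoxd4, and GGGCGG and TGATNNAT in neither window. Of all 32851 RefSeq promoter windows of this length, 33.8% hold CCAAT and 14.0% hold AGGTCA on either strand, and of the 24 windows of Hox genes 14 and 6 do. Only 17 of the 32 members had a window, and most of the Hox windows were of HoxA and HoxD. Such matches are letters in a window, and no binding was measured.

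Hox levels also moved with the replicate number, in the same direction in both lines for most members. An F test of the replicate number with the line as a term, added after the values were seen, called 14 of the 19 tested members, where 21.2% of all genes were called (limma, adjusted p under 0.05). Of these, 13 were lower in replicate 2 than in the mean of replicates 1 and 3, where 14.1% of all genes were called in that direction. The median over the 19 members was -0.62 on the log2 scale (all genes -0.08). Hoxc6 had the largest fall of the members, by 1.28 (limma adjusted p = 0.00464), followed by Hoxc5 with 1.18, Hoxa2 with 1.14, Hoxb8 with 1.14 and Hoxc4 with 1.07 on the log2 scale. Hoxb7 was not called (adjusted p = 0.286), and its replicate 2 was at 1.13 times the mean of the others in the control and at 0.887 times in the libraries labelled Nf2 KO.

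In RPKM, replicate 2 of Hoxa2 was at 0.884 in the control, against 2.90 and 2.80 in replicates 1 and 3. In the libraries labelled Nf2 KO it was at 0.818 against 3.28 and 3.39. Replicate 2 thus stood clear of the others in both lines for this hindbrain gene, and its ratio to the mean of the others was 0.310 and 0.245. The fibroblast marker Col3a1 moved the same way, with 82.0, 15.3 and 82.1 RPKM in the control and 54.7, 6.95 and 29.8 RPKM in the libraries labelled Nf2 KO. Of the 10 tested fibroblast markers, 5 were called by replicate number, 4 of them lower in replicate 2 and Thy1 higher (by 0.48 on the log2 scale, limma adjusted p = 0.0319). The endothelial marker Kdr was also higher there, at 3.75 and 4.39 RPKM against 1.32 to 1.74 RPKM in the other libraries. The depth of replicate 2 was 18961383 and 19284702 reads, between those of the other libraries of each line. The part of these in the Hox levels was not tested.

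**Figure D5:**
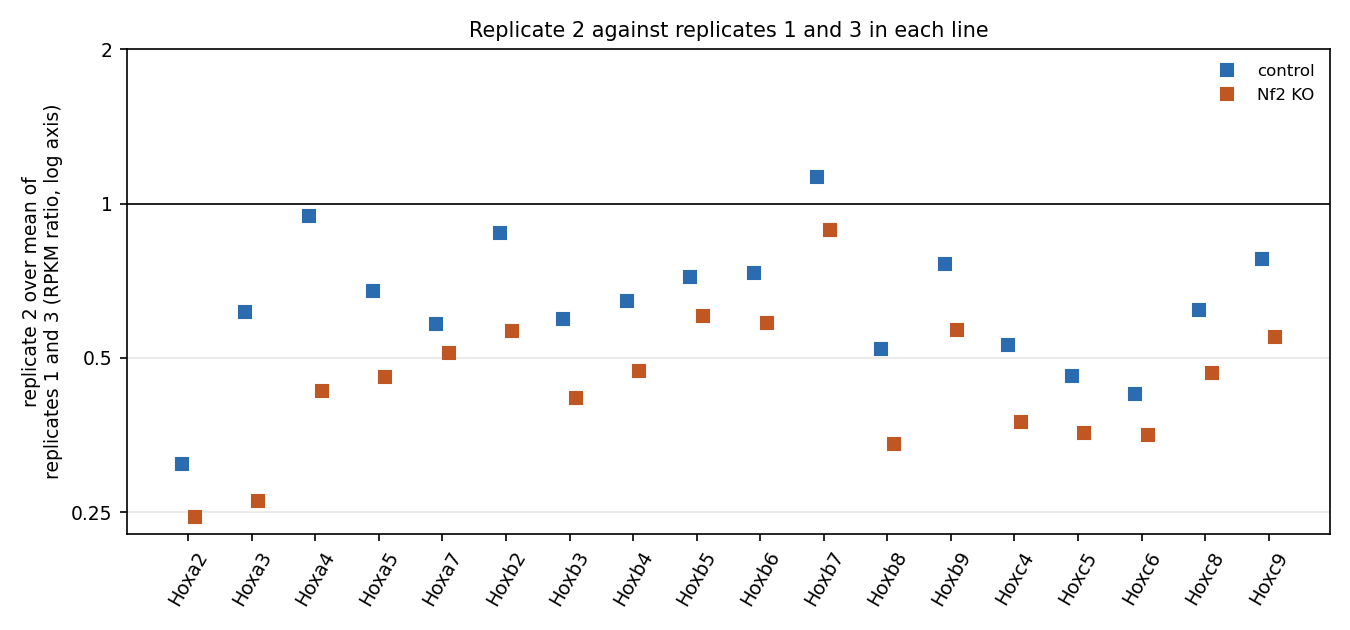
Ratio of replicate 2 to the mean of replicates 1 and 3 (RPKM, log axis) for 18 tested members in the control (blue) and under the Nf2 KO label (orange). Most points lie below 1 in both lines, down to 0.245 for Hoxa2; of Hoxb7 the control point lies just above 1, at 1.13.

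The partners and regulators of Hox genes were read from lists of genes. Calls in them are limma's, to be read against 1.06% of all genes called, 9.91% at an unadjusted p under 0.05 and 7.53% called with the block, and voom on the recovered reads is named where it called more. Of 10 Hox cofactors, the Pbx, Meis and Pknox proteins that bind DNA with Hox proteins and their interactor Pbxip1, 8 were tested and 0 called, with 0 at an unadjusted p under 0.05 and 0 called under the block. The highest of them were Pbxip1 (10.8 to 16.3 RPKM) and Pbx2 (6.31 to 10.1 RPKM). Of 31 Polycomb genes, which keep Hox genes shut, 0 were called, 4 had an unadjusted p under 0.05, and 1 (Scmh1, higher by 0.33) was called with the block. Rbbp7, a histone-binding subunit, was at 109 to 135 RPKM and Rbbp4 at 38.7 to 45.3 RPKM, the highest of that list. Ezh2, the histone methyltransferase of Polycomb, was at 12.1, 15.8 and 11.6 RPKM in the control and 15.2, 17.6 and 16.0 RPKM in the libraries labelled Nf2 KO (limma adjusted p = 0.543).

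Of 19 Trithorax genes and H3K27 demethylases, which keep Hox genes open, limma called 0, 1 had an unadjusted p under 0.05, and the same gene was called with the block and by voom. This was Mllt3, a subunit of the elongation complex, at 4.76, 5.07 and 4.01 RPKM in the control and 8.48, 7.94 and 7.16 RPKM in the libraries labelled Nf2 KO. All of the latter lay above all of the former (difference 0.66, SE 0.11, limma adjusted p = 0.0553, blocked 0.00759, voom 0.0382). The highest of this list were Psip1 (36.1 to 41.0 RPKM) and Mllt1 (26.3 to 32.2 RPKM). Of 13 Cdx, retinoic acid and other trunk regulators of Hox genes, 6 were tested and 0 called, with 2 at an unadjusted p under 0.05, and the same 2 were called with the block. Cyp26b1, an enzyme that breaks down retinoic acid, was at 1.86, 1.23 and 1.54 RPKM against 4.02, 2.35 and 3.85 RPKM (difference 0.78, SE 0.19, adjusted p = 0.168, blocked 0.0114). Brpf1, a chromatin reader, differed by 0.34 (SE 0.09, adjusted p = 0.241, blocked 0.0309). The highest of the list was the retinoic acid receptor Rarg, at 11.6 to 18.4 RPKM.

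Of 21 noncoding RNAs of the clusters, 9 had a row and 2 were tested, with 0 called, 0 at an unadjusted p under 0.05 and 0 under the block. Hoxb5os was at 6.72, 3.49 and 6.78 RPKM in the control and 6.59, 1.34 and 6.02 RPKM in the libraries labelled Nf2 KO, again lowest in replicate 2 of each line. Strand use in counting is not stated in the sources used here, so reads of a Hox gene and its antisense RNA cannot be told apart where they overlap (52.9% of the exon bases of Hoxb3 lie over Hoxb3os). Of 27 genes that flank the clusters, 14 were tested, 0 were called, 1 had an unadjusted p under 0.05 and 0 were called with the block.

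Other regulators of position were compared in the same way, at the filter of 1 RPKM. The fits of lower genes that called Hoxd8 are not given for these lists. They therefore do not show whether Hoxd8 stands alone among low genes of position. Of 25 limb genes, 12 were tested and limma called 0, with 5 at an unadjusted p under 0.05 and 2 lower with the block (En1 and Msx2), of which voom also called Msx2 (adjusted p = 0.0406). Msx2 passed the filter only through the control libraries, where it was high, so its call is a description. The highest were Prrx1, a gene of limb and craniofacial mesenchyme (7.29 to 23.6 RPKM), and Tbx15 (9.35 to 12.4 RPKM). Tbx5 of the forelimb did not pass 0.143 RPKM and Pitx1 of the hindlimb did not pass 0.0624 RPKM in either line, genes picked after their values were seen. Of 24 genes of head and neural crest, 6 were tested and 0 called, with 2 at an unadjusted p under 0.05 and 0 with the block.

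Of 29 genes of trunk, viscera and heart, 15 were tested, 8 had an unadjusted p under 0.05 (9.91% of all genes), 2 with higher and 7 with lower values did not overlap between the lines (15.1% of all genes), and 1 was called, Foxf1, a factor of the mesenchyme around the gut and lung. It was at 0.523, 0.546 and 0.521 RPKM in the control and 3.23, 2.81 and 4.40 RPKM in the libraries labelled Nf2 KO. It passed the filter only through the libraries labelled Nf2 KO, where it was high, so its difference (1.53, SE 0.15, limma adjusted p = 0.0137) is given as a description. The call was lost with no filter (adjusted p = 0.0833), without replicate 1 or replicate 3 of both lines, and without control replicate 1, control replicate 3 or replicate 1 labelled Nf2 KO. With the block 2 genes of this list were higher (Foxf1 and Twist1) and 4 lower (Foxf2, Hlx, Nr2f1 and Nr2f2), which are regulators of gut, spleen and venous mesenchyme among others and were named after their values were seen. Foxf2 likewise passed the filter only through the control libraries, where it was high. Voom on the recovered reads called Foxf1 and Nr2f2 (adjusted p = 0.0137 and 0.0452).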

How the data were processed

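The authors deposited 1 table of 26231 genes and 6 libraries, with values taken here as RPKM. The RNA was sent to GENEWIZ for sequencing and analysis; the aligner and counting tool are not given in the sources used here. The submitters' processing notes name mm10. The unit was inferred: multiplied by GENCODE vM21 (GRCm38) exon length, low values (up to 20 reads) were whole multiples of a step, within 0.02 of a read, in 81.4% to 83.6% of cases per library, where a uniform spread would give 4%. That step gave the depth and the read numbers, which are inferences.

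The 11067 genes that reached 1 RPKM in 3 or more libraries were fitted as log2(RPKM + 1) with limma 3.58.1 in R 4.3.3 (lmFit, eBayes with trend and robust settings), without a covariate, and adjusted by the Benjamini-Hochberg method over all genes tested. Called means an adjusted p under 0.05. On simulated data, this fit was required only to give the right sign for its calls. Limits on recovery and on false calls were set only for the fit with the replicate block. Groups came from the sample labels. After subtracting the line means, libraries with the same number correlated across genes at 0.552, 0.819 and 0.516 for replicates 1, 2 and 3. The deviations within a line cancel out, so a shift shared by both replicates 2 by itself raises the correlations of replicates 1 and 3. These values therefore show that replicate 2 stood apart in both lines, and cannot show that replicates 1 and 3 form pairs. The numbers were still treated as pairs, and a fit blocked on them is given where it changed a call. Alternatives were other scalings, filters, pseudocounts and thresholds, voom on recovered reads, and libraries left out. The filter of 0.1 RPKM with the block, voom on genes with 10 reads, the replicate F test and the left-out libraries for Hoxd8 were chosen after seeing the data.

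The members and lists were chosen with earlier results of these data known. By rule, Nf2, every member, called genes of the other lists or else their 2 highest, and RNAs and neighbours beside a member called at the filter of 1 RPKM (there was none) were named; any other gene was named after its values were seen. Values of 3 listed genes, 1 of them a member, are not reported here and are left out of the figures, though they stay in counts and sums. Promoters came from RefSeq, and homeobox stretches from the GRCm38 genome and GENCODE. Figures used matplotlib 3.10.9.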

Additional observations from a re-analysis of the deposited data

How the results depend on the processing

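Of 21 alternatives, 17 called 0 of the Hox members. The filter of 0.1 RPKM, the same filter with the replicate block and voom on genes with 10 reads each called 1 member (Hoxd8), and leave-one-out fits called 0 to 1 (Hoxa5, without replicate 2 of both lines). Over 374 values of the 19 tested members under alternatives, 330 kept sign and side of the threshold, 43 changed sign without a call and 1 passed it. Sign changes touched 16 members. The count over all genes, 117 as reported, was 9 with no filter (5 higher and 4 lower), 63 with a filter of 5 RPKM (27 and 36), 833 with the replicate block (331 and 502), 788 with the block and the filter of 0.1 RPKM (304 and 484), 235 with voom on genes with 10 reads (99 and 136), 0 to 484 with a replicate number left out in both lines (leave-one-out), and 10 to 142 with a single library left out. The cause of these moves was not tested. The block changed no call among the members. The list and marker genes whose call it changed are named above. Where a single library was left out, the spread was pooled over the rest. Genes of under 1 RPKM rest on few reads in the shallower replicates 1 and 2, which limits what can be said of HoxD and of groups 10 to 13.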
